A study of Mus musculus with 3 samples.

Results

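The genes described here are 38 genes that act in S phase, the stage of the cell cycle in which DNA is copied, and that are known as targets or partners of the E2F transcription factors. They were given as a list of names, and all 38 were found among the 20605 genes of the deposited matrix. They fall into 7 roles. The replicative helicase has 6 genes (Mcm2 to Mcm7), licensing and firing of origins 5 (Cdc6, Cdt1, Dtl, Gins2 and Cdc45), and polymerase, clamp and ligase 8 (Pcna, Pola1, Pold3, Prim1, Rfc2, Rpa2, Fen1 and Lig1). Nucleotide supply has 3 (Tyms, Rrm1 and Rrm2), chromatin and histones 4 (Slbp, Chaf1b, Uhrf1 and Hells), fork protection and repair 8 (Brca1, Brip1, Rad51ap1, Exo1, Ung, Usp1, Clspn and Tipin), and E2F and cyclin E 4 (E2f1, E2f8, Ccne1 and Ccne2).

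The cells came from mammary tumours of 4 C3(1)-Tag FVB mice aged 25 to 30 weeks, taken when the primary tumour measured 20 mm. In these mice the C3(1) promoter drives the simian virus large T antigen in mammary epithelium, so collagen and Matrigel cultures alike carried the transgene. Freshly isolated organoids or clusters of cells from each mouse were embedded in collagen I, which forms the fibres of connective tissue, or in Matrigel, a gel of basement membrane proteins rich in laminin. The medium was DMEM/F12 with insulin, transferrin and selenium and 2.5 nM FGF2. Single-cell RNA was read on day 0 (12 h after plating), day 3 and day 5, with both matrices, all mice and cells of the line 4T1 in 1 pool per day. 4T1 is an established mouse mammary carcinoma line and was grown on plastic in RPMI-1640 with serum. Cells left collagen with collagenase (2 mg per ml) and Matrigel with EDTA (10 mM) on ice, and MULTI-seq barcodes, short lipid-anchored DNA tags, marked the condition of each cell. Matrix and release method therefore cannot be told apart, nor can day and pool. The earliest cells carry the name D1 in the annotation and are taken here as day 0, since the other names match the later pools.

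In resting cells the retinoblastoma protein Rb holds E2F factors at their target promoters in an inactive state. Cyclin D and cyclin E kinases phosphorylate Rb late in G1 and release E2F, whose targets include the Mcm helicase, the licensing factors Cdc6 and Cdt1, the enzymes of nucleotide supply and cyclin E itself. The large T antigen binds Rb and its relatives and frees E2F from them without that phosphorylation, which is one way in which the transgene drives division of mammary epithelium.

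The promoters are shown because the list is named for E2F, and their sequences show which members carry its consensus near the start. The search used 4 forms of the E2F consensus, TTTCCCGC, TTTCGCGC, TTTGCCGC and TTTGGCGC, on either strand and with overlaps counted, in the window from 250 bases before to 50 after each RefSeq gene start (GRCm38.p6). Of the 38 genes, 31 had a window, and 13 of these held at least 1 match (41.9%). Among all 27025 genes of the same table, 704 held a match (2.6%), and among the 10039 that also entered the expression test, 475 did (4.7%). The helicase genes held most: 4 of 5 windows had a match, and each of the 4 (Mcm3, Mcm5, Mcm6 and Mcm7) had at least 2. Licensing and firing genes matched in 3 of 4 windows, chromatin genes in 2 of 4, and polymerase, clamp and ligase genes in 3 of 7. None of the 3 nucleotide supply windows or the 3 windows of E2f1, E2f8 and Ccne1 matched. Other lists of related genes matched as well: 7 of 16 windows of genes that control Rb and E2F (43.8%) and 10 of 35 of other replication genes (28.6%). Of 7 windows of CDK inhibitor genes 1 matched (14.3%), and of 28 windows of G2 and mitosis genes 1 matched (3.6%). The CCAAT box, bound by NF-Y, stood in 20 of the 31 windows (64.5%), against 41.1% of all windows. A match is a string of letters and not a tested binding site, and its absence says only that these letters are not in this window.

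The 7 windows below belong to genes described in the results: a helicase pair with overlapping matches, 3 licensing genes with 1 match each, and a pair of genes with none. They run 5′ to 3′ on the gene's strand, and capitals mark the E2F matches.
Mcm6 (chr1:128359656-128359955, minus strand): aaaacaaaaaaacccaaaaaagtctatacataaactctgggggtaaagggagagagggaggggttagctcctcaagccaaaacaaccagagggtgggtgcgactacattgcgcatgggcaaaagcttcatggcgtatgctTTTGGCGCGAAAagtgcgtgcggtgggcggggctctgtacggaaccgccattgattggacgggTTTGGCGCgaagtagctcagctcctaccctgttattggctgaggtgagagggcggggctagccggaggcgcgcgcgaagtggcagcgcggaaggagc
Mcm5 (chr8:75109259-75109558, plus strand): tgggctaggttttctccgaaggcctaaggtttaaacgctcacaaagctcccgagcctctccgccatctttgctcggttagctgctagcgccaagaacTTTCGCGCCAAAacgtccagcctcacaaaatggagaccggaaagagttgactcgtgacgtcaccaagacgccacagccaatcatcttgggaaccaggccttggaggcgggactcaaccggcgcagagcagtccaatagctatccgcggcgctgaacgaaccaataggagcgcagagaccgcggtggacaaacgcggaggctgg
Cdc6 (chr11:98907901-98908200, plus strand): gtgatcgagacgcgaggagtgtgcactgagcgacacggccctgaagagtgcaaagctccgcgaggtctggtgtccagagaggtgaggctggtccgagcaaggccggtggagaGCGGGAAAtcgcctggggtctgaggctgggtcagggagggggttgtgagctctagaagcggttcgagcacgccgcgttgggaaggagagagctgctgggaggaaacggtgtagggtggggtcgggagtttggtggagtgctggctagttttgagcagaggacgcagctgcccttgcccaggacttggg
Cdt1 (chr8:122567765-122568064, plus strand): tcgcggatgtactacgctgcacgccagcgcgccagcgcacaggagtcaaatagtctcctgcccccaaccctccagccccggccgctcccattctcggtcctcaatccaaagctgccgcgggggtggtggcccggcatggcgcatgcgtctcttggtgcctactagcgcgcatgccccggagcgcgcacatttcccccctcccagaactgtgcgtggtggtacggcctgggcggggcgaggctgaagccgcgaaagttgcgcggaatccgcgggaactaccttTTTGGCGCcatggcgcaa
Dtl (chr1:191575495-191575794, minus strand): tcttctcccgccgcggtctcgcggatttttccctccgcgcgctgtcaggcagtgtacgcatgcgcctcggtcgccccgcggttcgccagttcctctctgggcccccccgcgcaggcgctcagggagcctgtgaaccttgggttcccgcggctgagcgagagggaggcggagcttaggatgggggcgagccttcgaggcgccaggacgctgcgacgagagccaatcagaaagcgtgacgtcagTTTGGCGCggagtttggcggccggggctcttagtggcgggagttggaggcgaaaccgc
Tyms (chr5:30073576-30073875, minus strand): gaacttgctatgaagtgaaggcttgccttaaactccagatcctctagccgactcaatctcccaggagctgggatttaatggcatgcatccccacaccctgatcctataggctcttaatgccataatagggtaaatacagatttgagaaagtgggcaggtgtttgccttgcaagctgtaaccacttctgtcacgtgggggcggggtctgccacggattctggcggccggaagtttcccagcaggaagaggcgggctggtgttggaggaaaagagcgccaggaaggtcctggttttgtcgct
Ccne1 (chr7:38107441-38107740, minus strand): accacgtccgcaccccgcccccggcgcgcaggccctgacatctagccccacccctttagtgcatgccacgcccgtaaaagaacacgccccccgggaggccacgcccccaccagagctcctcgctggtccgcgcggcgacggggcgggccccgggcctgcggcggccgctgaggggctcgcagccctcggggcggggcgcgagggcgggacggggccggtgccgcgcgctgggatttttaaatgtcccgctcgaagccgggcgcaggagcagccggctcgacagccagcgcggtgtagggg
In Mcm6 a forward match begins 110 bases before the start, a reverse one overlaps it at 106 bases before, and another forward match begins 47 bases before. Mcm5 has an overlapping pair, 153 and 149 bases before the start. The Dtl match begins 8 bases before the start, the Cdc6 match lies 138 bases before it on the reverse strand, and the Cdt1 match begins 32 bases after it. Another annotation, GENCODE vM21, begins Cdc6 at base 98907801, ahead of the Cdc6 window. By that annotation the Cdc6 match lies inside the gene.

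The matrix held 7620 cells, 2961 on day 0, 3463 on day 3 and 1196 on day 5. Removing 336 mouse-labelled cells whose clusters showed markers of macrophages, fibroblasts or T and NK cells left 6971. Their counts of unique molecular identifiers (UMIs, 1 per captured RNA molecule) were summed per mouse, matrix and day into 21 sums of 38 to 1148 cells and 1831436 to 46657709 UMIs. Mouse 4 gave no cells on day 5, and mouse 1 in Matrigel on day 5 had 13 cells and was not used, so day 5 rests on 3 mice in collagen and 2 in Matrigel. Over all labelled cells, median UMIs per cell were on days 0, 3 and 5, 15052, 36162 and 54762 for collagen and 15865, 40679 and 59399 for Matrigel. Of the 630 tumour cells with under 5000 UMIs, 353 were cells of mouse 4 on day 0. All 12 epithelial markers, among them Epcam, Krt8 and Krt18, were found in each group, with a summed level of 4760 to 9310 CPM (counts scaled to a common library total) per sum. The 13 macrophage markers summed to 47.9 to 341 CPM, of which Cd14 made up most, and the C1q genes stayed under 1 CPM. The pools shared 7 cell barcodes between days 0 and 3, none between days 0 and 5, and 4 between days 3 and 5.

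The 38 genes together took under 0.5% of the tumour cells' UMIs in every sum. In collagen they held 0.440 ± 0.0399% of all UMIs on day 0 (SD, n = 4), 0.372 ± 0.0379% on day 3 (n = 4) and 0.40 ± 0.0275% on day 5 (n = 3). In Matrigel the shares were 0.460 ± 0.0162% on day 0 (n = 4), 0.367 ± 0.0586% on day 3 (n = 4) and 0.384 ± 0.00849% on day 5 (n = 2). The mean was highest on day 0 in both matrices, and the mice overlapped between collagen and Matrigel on every day. Mouse 1 was the lowest of its group on day 3, with 0.318% in collagen and 0.312% in Matrigel, and mouse 3 the highest on day 0, with 0.494% in collagen and 0.475% in Matrigel. A sum can move with more cells in S phase or with more RNA of these genes per cell, and the 2 cannot be told apart in it.

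**Figure D1:**
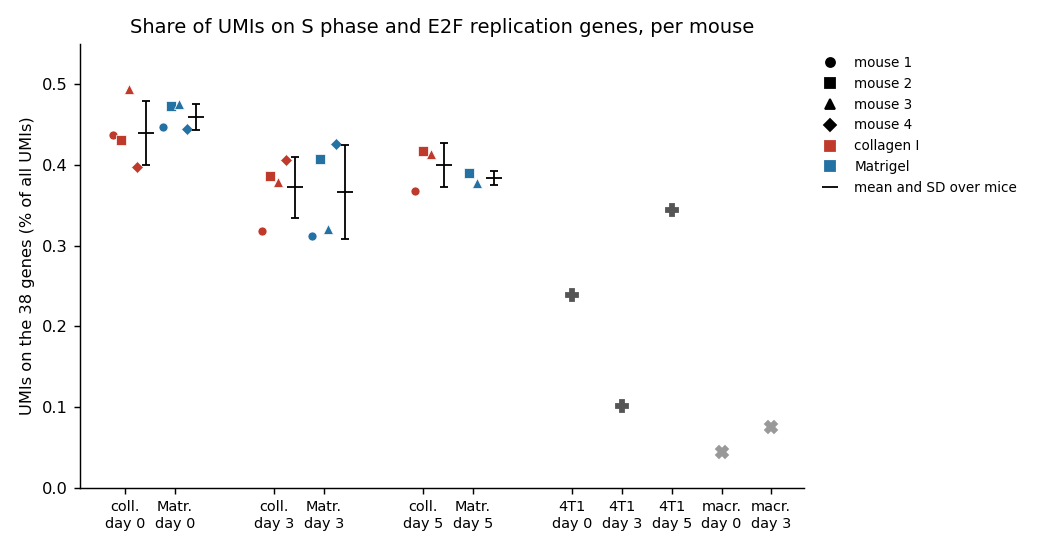
Share of UMIs on the 38 S phase and E2F replication genes (%, from 0) in each sum of tumour cells, by matrix and day, with 4T1 and macrophage-like cells of each pool as 1 sum each and no error. Tumour sums lie between 0.312 and 0.494%, the mean is highest on day 0, and the 4T1 sums lie at 0.239, 0.101 and 0.344% on days 0, 3 and 5.

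The 4T1 cells of the same pools, whose culture has the same label on every day, ranged more widely than the tumour sums. The 38 genes took 0.239% of their UMIs on day 0 (98 cells), 0.101% on day 3 (196 cells) and 0.344% on day 5 (19 cells), with 1 sum per pool and no replicate. On day 3 all 38 genes were lower in 4T1 than on day 0, with a median log2 change of -1.04 (on CPM plus 5) against -0.12 for the 8809 genes of at least 5 CPM, and 20 of the 38 were at least 2-fold lower (5.07% of those genes). On day 5 all 38 were higher than on day 3. These 4T1 values stand beside every comparison between days, and their part in the tumour cells' differences was not tested. Macrophage-like cells held 0.0445% on day 0 and 0.0747% on day 3.

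Cell by cell, a large minority of tumour cells carried many of these RNAs. Each cell was thinned to 2000 UMIs at random, which left out 84, 12 and 1 collagen cells and 138, 19 and 1 Matrigel cells on days 0, 3 and 5, and cells with at least 10 UMIs on the 38 genes were counted. In collagen these were 35.6 ± 4.76% of cells on day 0, 29.4 ± 8.87% on day 3 and 30.2 ± 4.77% on day 5 (SD over 4, 4 and 3 mice). In Matrigel they were 38.8 ± 3.87% on day 0, 26.9 ± 10.7% on day 3 and 34.2 ± 1.28% on day 5 (4, 4 and 2 mice). The groups overlapped between matrices on each day. The spread was widest on day 3, when mouse 1 had 18.2% in collagen and 17.0% in Matrigel, mouse 3 had 27.4% in collagen and 18.3% in Matrigel, and mouse 4 had 39.1% in collagen and 36.8% in Matrigel. Mouse 2 had 32.8% in collagen and 35.4% in Matrigel on that day. The same count was 8.16, 2.58 and 26.32% in 4T1 cells on days 0, 3 and 5 (exact 95% intervals 3.59 to 15.45%, 0.84 to 5.91% and 9.15 to 51.2%, which cover counting error only). In macrophage-like cells it was 1 of 171 cells on day 0 and 0 of 28 on day 3 (exact upper bound 12.34%). Whether the UMIs of these genes in macrophage-like cells come from free RNA or from the cells themselves was not tested.

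The same cells were read for 30 G2 and mitosis genes, which act after replication is complete. Between 0 and 4.65% of the cells of a sum had at least 10 thinned UMIs on both lists, a share that the smaller of both single shares limits. As a description, the Pearson correlation of the list sums across the cells of a sum ran from -0.31 to 0.14 over 18 sums of at least 100 cells, which each share a library, and was above 0 in 6 of them. Over days 0, 3 and 5 the G2 and mitosis share averaged 13.5, 18.8 and 21.6% for collagen mice and 6.94, 17.8 and 26.4% for Matrigel mice, so on this measure it was lowest on day 0 while the S phase share was highest. In 4T1 cells of the same pools the G2 and mitosis share was 37.76, 9.28 and 31.58% on those days, 1 value per pool. On day 0 the G2 and mitosis share was 13.0, 12.0, 15.5 and 13.3% in collagen (mice 1 to 4) and 5.33, 5.92, 12.1 and 4.39% in Matrigel. Collagen was above Matrigel in every mouse, and the lowest collagen mouse, mouse 2, was just below the highest Matrigel mouse, mouse 3.

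**Figure D2:**
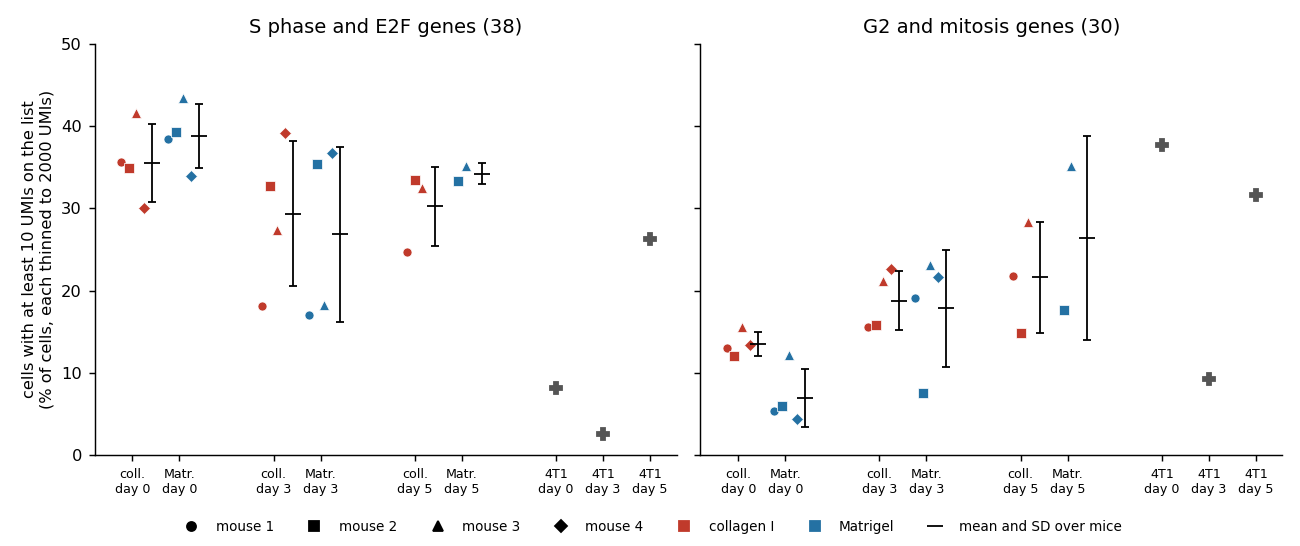
Share of cells (%, each thinned to 2000 UMIs) with at least 10 UMIs on the 38 S phase and E2F genes (left) and on 30 G2 and mitosis genes (right), with points for mice, the mean and SD over mice, and 4T1 cells as 1 value per pool. S phase shares run from 17.0 to 43.4% over the mice, and those of G2 and mitosis average lowest in day 0 Matrigel (6.94%).

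The first set of comparisons asked how the genes differed between collagen and Matrigel on the same day. None of the 38 genes passed the test (edgeR's quasi-likelihood test, Benjamini-Hochberg adjusted p under 0.05 over 13184 genes) on any day, in either direction. The background was 7.03% of all genes called on day 0, 0.205% on day 3 and 0.455% on day 5. The median log2 fold change of collagen over Matrigel over the 38 genes was -0.12 on day 0, 0.01 on day 3 and 0.01 on day 5, beside 0.01, -0.01 and 0.00 over all genes tested. The single values ran from -0.50 to 0.31 on day 0, from -0.49 to 0.29 on day 3 and from -0.33 to 0.42 on day 5. At an unadjusted p under 0.05 there were 5 genes on day 0, 2 on day 3 and 0 on day 5, and DESeq2 called 1 higher and 1 lower on day 0 and 0 on days 3 and 5. The mice are separate animals, and the p-values of this fit measure the spread between mice. The fit does not use that the same mice were grown in both matrices and read on several days. Between days the p-values hold no spread between pools, since each day had 1 pool.

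On day 0 the genes with the smallest p of each role did not pass, although several were lower in collagen in every mouse. Lig1, the ligase that joins Okazaki fragments, had 94.9, 85.1, 89.0 and 92.8 CPM in collagen (mice 1 to 4), against 82.2, 67.7, 76.1 and 66.2 CPM in Matrigel. The groups did not overlap, and the log2 fold change was 0.31 ± 0.10 (SE, adjusted p = 0.0805). Rpa2, a subunit of the protein that coats single-stranded DNA, had 106.7, 91.2, 120.3 and 82.1 CPM in collagen, against 146, 117, 146 and 125 CPM in Matrigel. Collagen was lower in every mouse, with overlap between the groups and a fold change of -0.42 ± 0.15 (adjusted p = 0.0947). Ung, which removes uracil from DNA, had 79.0, 74.0, 68.0 and 84.2 CPM in collagen, against 114, 113, 85.8 and 119 CPM in Matrigel. Those groups did not overlap, and its fold change was -0.50 ± 0.20 (adjusted p = 0.140). Dtl, the adaptor of the ubiquitin ligase that destroys Cdt1 in S phase, had 72.9, 78.8, 86.6 and 58.6 CPM in collagen, against 91.3, 115, 111 and 81.3 CPM in Matrigel, with overlap (-0.42 ± 0.19, adjusted p = 0.191). In Mcm4, a helicase subunit, collagen had 127, 136, 119 and 95.9 CPM and Matrigel 153.5, 145, 148 and 126 CPM, with overlap (-0.26 ± 0.14, adjusted p = 0.278). Slbp, the histone RNA binding protein, had 326, 379.8, 342 and 351 CPM in collagen, against 362, 449, 409.6 and 478 CPM in Matrigel, with overlap (-0.28 ± 0.16, adjusted p = 0.314). Collagen was lower than Matrigel in each of the 4 mice for Dtl, Mcm4 and Slbp. Ccne2, cyclin E2, had 32.1, 29.9, 45.5 and 31.4 CPM in collagen, against 38.2, 49.0, 46.9 and 42.8 CPM in Matrigel (-0.35 ± 0.22, adjusted p = 0.358), and Rrm1, the large subunit of ribonucleotide reductase, was at 0.12 ± 0.13 (adjusted p = 0.649). Of the 38 genes, 2 did not overlap between collagen and Matrigel on day 0, beside 14% of all genes.

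The same animals were grown in both matrices, and with the mouse as a block 7 genes passed on day 0 (24.3% of all genes did). Rfc2 (0.28) and Lig1 (0.31) were higher in collagen, and Dtl (-0.42), Rpa2 (-0.41), Slbp (-0.27), Rad51ap1 (-0.44) and Ung (-0.49) were lower on the log2 scale. The share called, 7 of 38, lies below that background.

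On day 3 the smallest p was that of Ccne1, cyclin E1, with 27.9, 24.1, 36.2 and 27.5 CPM in collagen, against 41.5, 31.9, 43.0 and 43.7 CPM in Matrigel. Collagen was lower in every mouse, with 1 collagen mouse, mouse 3, above Matrigel mouse 2. The log2 fold change was -0.47 ± 0.17 (adjusted p = 0.324), and with the mouse as a block Ccne1 passed (adjusted p = 0.0282, with 4.37% of all genes called). Among the other roles, Brip1, a helicase that works with Brca1, had 16.2, 17.1, 18.3 and 20.4 CPM in collagen, against 24.5, 19.4, 23.5 and 23.5 CPM in Matrigel (-0.34 ± 0.17, adjusted p = 0.523). Tyms, which makes thymidylate, had 205, 274, 237 and 268 CPM in collagen, against 250.5, 244, 259 and 343 CPM in Matrigel (-0.16 ± 0.14, adjusted p = 0.838). Slbp had 193, 269, 241 and 283 CPM in collagen, against 208, 311, 229.7 and 335 CPM in Matrigel (-0.14 ± 0.16, adjusted p = 0.903). The matrices overlapped for all 3. Mcm7, a helicase subunit, had 199, 233, 208 and 232 CPM in collagen, against 169, 234, 187 and 208 CPM in Matrigel (0.13 ± 0.12, adjusted p = 0.851). Pola1 was at 0.14 ± 0.14 (adjusted p = 0.877) and Cdc45 at 0.15 ± 0.18 (adjusted p = 0.912). None of the 38 genes was free of overlap on day 3 (4.67% of all genes were). Ccne2 had the lowest fold change, -0.49 ± 0.23 (adjusted p = 0.491).

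Day 5 had 3 mice against 2, and the largest values were E2f1 at 0.42 ± 0.32 (adjusted p = 0.668) and Cdt1 at 0.41 ± 0.24 (adjusted p = 0.545). Cdt1 had 69.6, 72.4 and 70.7 CPM in collagen, against 60.6 and 45.8 CPM in Matrigel on day 5, without overlap, as for 9 of the 38 genes and 35.6% of all genes. Mcm5 had 145.5, 155 and 164 CPM in collagen, against 115 and 133.5 CPM in Matrigel on that day, also without overlap (0.32 ± 0.18, adjusted p = 0.512). Rpa2 had 71.3, 75.3 and 84.0 CPM in collagen, against 105 and 88.2 CPM in Matrigel, lower without overlap (-0.33 ± 0.19, adjusted p = 0.542). Clspn, an adaptor of the replication checkpoint, was at -0.33 ± 0.23 (adjusted p = 0.623), Tyms at -0.25 ± 0.18 (adjusted p = 0.664) and Chaf1b at 0.18 ± 0.16 (adjusted p = 0.746).

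Whether the matrix difference changed with time was tested as the later difference minus that of day 0. None of the 38 genes passed for day 3 (0.0303% of all genes did) or for day 5 (1.19% did). At an unadjusted p under 0.05 there were 0 genes for day 3 and 2 for day 5. These were Lig1, whose difference fell by 0.51 on the log2 scale (SE 0.17, adjusted p = 0.134), and Mcm5, whose difference was 0.55 ± 0.22 higher (adjusted p = 0.221). With the mouse as a block both passed for day 5, when 13.7% of all genes did, and DESeq2 called 1 gene lower for day 5 and 0 for day 3.

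The larger differences lay between day 3 and day 0, where the list split in both matrices. Cdc6, Cdt1 and Dtl of origin licensing, the histone RNA binding protein Slbp and cyclin E2 fell, while thymidylate synthase, a clamp loader subunit and cyclin E1 rose. In collagen 4 genes rose and 6 fell on day 3 relative to day 0, 10 of 38 beside 19.5% of all genes (9.3% rose and 10.2% fell). In Matrigel 5 rose and 14 fell, 19 of 38 beside 39.1% of all genes (19.4% rose and 19.7% fell). The median log2 change was -0.10 in collagen and -0.30 in Matrigel, beside -0.02 and -0.01 over all genes tested. Of the called genes, 3 that rose (Tyms, Rfc2 and Ccne1) were shared, out of 4 in collagen and 5 in Matrigel, and 6 that fell (Cdc6, Cdt1, Slbp, Rpa2, Ccne2 and Dtl) were shared, out of 6 in collagen and 14 in Matrigel. No gene was called in opposite directions. Of the genes shared, Cdc6, Cdt1, Dtl, Slbp, Rpa2 and Ccne1 were each called in collagen in 1 of 4 fits that left out a mouse, Tyms in 2 of 4, and Ccne2 and Rfc2 in 4 of 4. The 2 comparisons share their animals and pools, and as given above no gene's change passed as different between the matrices. In groups that do not overlap, the count was 10 of 38 in collagen (23.2% of all genes) and 13 of 38 in Matrigel (30.4%).

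**Figure D3:**
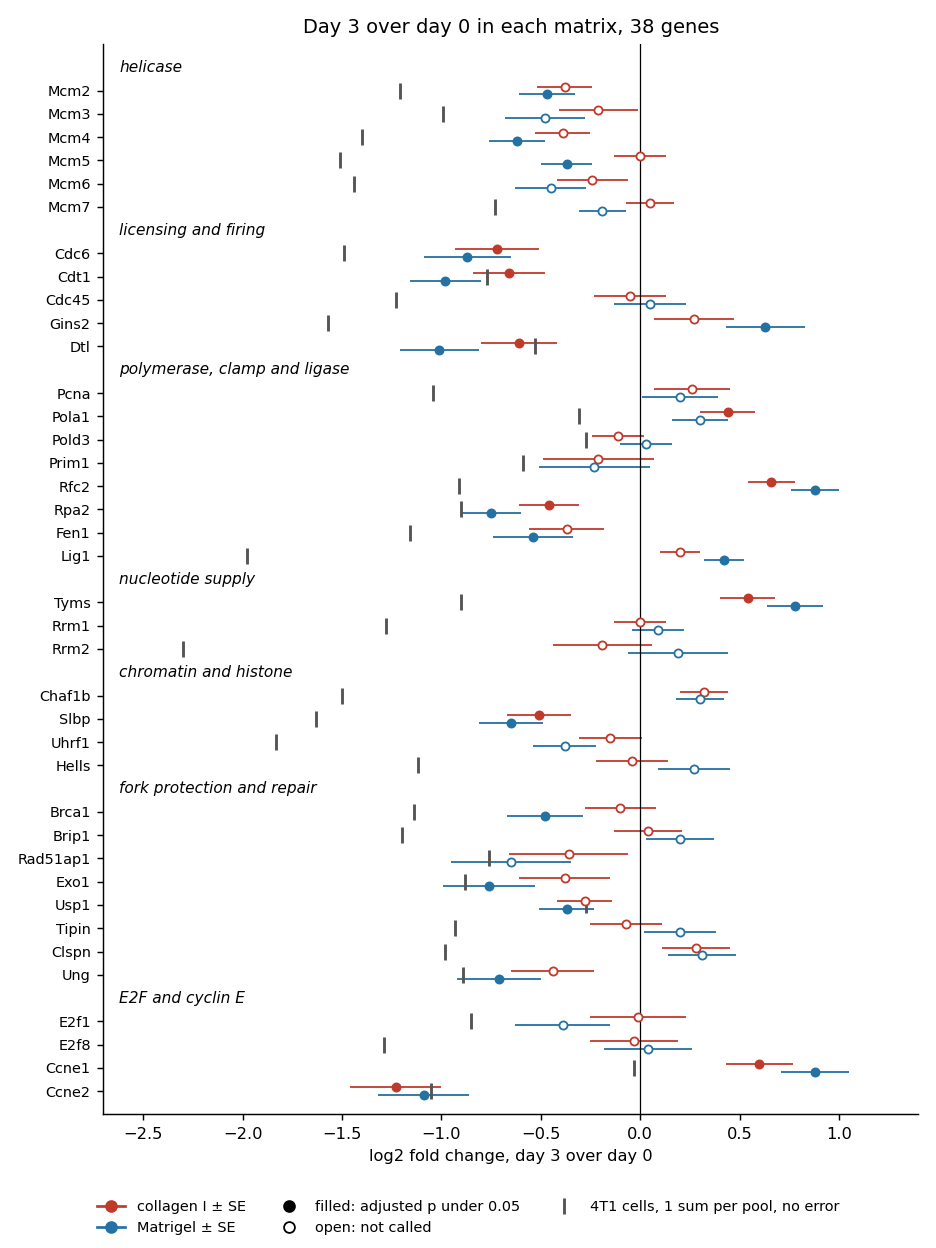
log2 fold change of day 3 over day 0 for each of the 38 genes by role in collagen (red) and Matrigel (blue) with SE, filled where the adjusted p is under 0.05, and in 4T1 cells (grey bars, 1 sum per pool, no error). Cdc6, Cdt1, Dtl, Slbp, Rpa2 and Ccne2 are filled and below 0 in both matrices, Rfc2, Tyms and Ccne1 are filled and above 0 in both, and all 38 genes lie below 0 in 4T1.

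Among licensing and firing genes, Cdc6, Cdt1 and Dtl fell in both matrices, although leaving out a mouse kept each collagen call in 1 of 4 fits (without mouse 4) and each Matrigel call in 4 of 4. Cdc6, which loads the helicase on origins, had 31.6, 29.7, 28.9 and 20.4 CPM in day 3 collagen (mice 1 to 4), against 51.0, 40.7, 63.4 and 27.9 CPM in day 0 collagen. Each mouse was lower on day 3, but day 0 mouse 4 lay among the day 3 values. The log2 fold change was -0.72 ± 0.21 (adjusted p = 0.0228). In Matrigel Cdc6 had 31.5, 34.1, 31.1 and 24.3 CPM on day 3, against 58.9, 53.9, 68.0 and 38.9 CPM on day 0, with no overlap (-0.87 ± 0.22, adjusted p = 0.00386). Cdt1, its partner in licensing, had 51.5, 64.4, 71.5 and 78.9 CPM in day 3 collagen, against 104, 113, 108 and 94.5 CPM in day 0 collagen (-0.66 ± 0.18, adjusted p = 0.0145). In Matrigel it had 41.5, 85.4, 44.6 and 65.7 CPM on day 3, against 110.9, 110.7, 117 and 133 CPM on day 0 (-0.98 ± 0.18, adjusted p = 0.000373). The groups did not overlap in either matrix, and mouse 2 was the highest of the day 3 Matrigel values. Cdt1 shares its strand with the predicted gene Gm20388, which overlaps it, so its reads are uncertain to that extent. Dtl had 44.6, 52.8, 56.4 and 39.3 CPM in day 3 collagen, against 72.9, 78.8, 86.6 and 58.6 CPM on day 0 (-0.61 ± 0.19, adjusted p = 0.0320). In Matrigel Dtl had 39.7, 72.9, 42.1 and 41.6 CPM on day 3, against 91.3, 115, 111 and 81.3 CPM on day 0 (-1.01 ± 0.20, adjusted p = 0.000501). Neither matrix overlapped between days, and mouse 2 again stood above the others on day 3 in Matrigel.

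The other licensing genes did not share that fall. Gins2, a subunit of the GINS complex that activates the helicase, rose in Matrigel, with 66.0, 80.4, 54.3 and 106 CPM on day 3, against 48.4, 46.0, 38.4 and 66.5 CPM on day 0. It was higher in each mouse with overlap between the groups (0.63 ± 0.20, adjusted p = 0.0170), and was called in 2 of 4 fits that left out a mouse. In collagen its fold change was 0.27 ± 0.20 (adjusted p = 0.367). Cdc45, which joins GINS and the Mcm ring at firing, differed by -0.05 ± 0.18 in collagen and 0.05 ± 0.18 in Matrigel, under its SE in both.

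The 6 helicase subunits were not all called, and their changes were not tested against each other. None passed in collagen, where the lowest value was that of Mcm4, with 96.4, 98.5, 86.0 and 84.5 CPM on day 3, against 127, 136, 119 and 95.9 CPM on day 0 (-0.39 ± 0.14, adjusted p = 0.0621). In Matrigel 3 of 6 fell. Mcm4 had 78.3, 119, 78.5 and 94.3 CPM on day 3, against 153.5, 145, 148 and 126 CPM on day 0, with no overlap (-0.62 ± 0.14, adjusted p = 0.00200). Mcm2 had 75.9, 102, 92.3 and 94.2 CPM in day 3 Matrigel, against 122, 107, 164 and 112 CPM on day 0, also without overlap (-0.47 ± 0.14, adjusted p = 0.0150). Mcm5 had 125, 177, 141 and 183 CPM on day 3, against 182, 178, 221 and 230.0 CPM on day 0, with overlap (-0.37 ± 0.13, adjusted p = 0.0359). Mcm3 (-0.48 ± 0.20) and Mcm6 (-0.45 ± 0.18) had like values and missed the threshold in Matrigel (adjusted p = 0.0605 and 0.0522), and Mcm7 was at -0.19 ± 0.12. Leaving out a mouse kept the Matrigel call of Mcm4 in 4 of 4 fits, that of Mcm2 in 2 and that of Mcm5 in 0. In collagen Mcm5 and Mcm7 stood at 0.00 ± 0.13 and 0.05 ± 0.12. With the mouse as a block Mcm2 (-0.38, adjusted p = 0.00802) and Mcm4 (-0.39, adjusted p = 0.0122) passed in collagen, when 37.7% of all genes did. All 6 subunits passed with the block in Matrigel, when 54.8% of all genes did.

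Polymerase, clamp and ligase genes moved both ways. Rfc2, a subunit of the loader of the PCNA clamp, had 122, 159.9, 139.7 and 155 CPM in day 3 collagen, against 96.4, 90.4, 85.7 and 93.2 CPM in day 0 collagen (0.66 ± 0.12, adjusted p = 0.00106). In Matrigel Rfc2 had 124, 148, 131 and 155 CPM on day 3, against 76.1, 93.3, 61.5 and 72.3 CPM on day 0 (0.88 ± 0.12, adjusted p = 2.32e-05). Every day 3 mouse lay above every day 0 mouse in both matrices. Rpa2 fell, with 61.9, 67.4, 78.4 and 83.6 CPM in day 3 collagen, against 106.7, 91.2, 120.3 and 82.1 CPM on day 0 (-0.46 ± 0.15, adjusted p = 0.0344). In Matrigel Rpa2 had 69.5, 66.9, 80.8 and 99.96 CPM on day 3, against 146, 117, 146 and 125 CPM on day 0 (-0.75 ± 0.15, adjusted p = 0.000663). The days did not overlap in Matrigel, while in collagen mouse 4 was a little higher on day 3. Pola1, the catalytic subunit of the polymerase that starts each strand, rose in collagen, with 56.8, 69.2, 80.2 and 69.7 CPM on day 3, against 49.7, 44.4, 56.6 and 53.1 CPM on day 0 (0.44 ± 0.14, adjusted p = 0.0393). Lig1 rose in Matrigel, with 106, 88.8, 100.1 and 95.7 CPM on day 3, against 82.2, 67.7, 76.1 and 66.2 CPM on day 0 (0.42 ± 0.10, adjusted p = 0.00409). Fen1, the nuclease that trims Okazaki fragments, fell in Matrigel, with 73.6, 97.2, 71.8 and 73.8 CPM on day 3, against 122, 119, 127 and 91.2 CPM on day 0 (-0.54 ± 0.20, adjusted p = 0.0367). Neither Pola1 nor Lig1 overlapped between the days, while Fen1 did through day 0 mouse 4. Leaving out a mouse kept the collagen calls of Rpa2 and Pola1 and the Matrigel call of Fen1 in 1 of 4 fits each, and the other calls of Rfc2, Rpa2 and Lig1 in 4 of 4. Pcna, the clamp itself, was at 0.26 ± 0.19 in collagen and 0.20 ± 0.19 in Matrigel, Pold3, a subunit of the lagging strand polymerase, at -0.11 ± 0.13 and 0.03 ± 0.13, and Prim1, the primase, at -0.21 ± 0.28 and -0.23 ± 0.28.

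In nucleotide supply, Tyms rose and both subunits of ribonucleotide reductase did not pass. Tyms, thymidylate synthase, had 205, 274, 237 and 268 CPM in day 3 collagen, against 156, 145, 183 and 191 CPM in day 0 collagen (0.54 ± 0.14, adjusted p = 0.0114). In Matrigel it had 250.5, 244, 259 and 343 CPM on day 3, against 155, 183, 159 and 141 CPM on day 0 (0.78 ± 0.14, adjusted p = 0.000311). The days did not overlap in either matrix, and leaving out a mouse kept the collagen call in 2 of 4 fits and the Matrigel call in 4 of 4. Rrm1 was at 0.00 ± 0.13 in collagen and 0.09 ± 0.13 in Matrigel, and Rrm2, the small subunit, at -0.19 ± 0.25 and 0.19 ± 0.25. After thinning, a Tyms UMI was found in 23.5 ± 3.42, 33.2 ± 5.15 and 29.2 ± 0.69% of collagen cells on days 0, 3 and 5, and in 21.9 ± 3.13, 36.0 ± 6.18 and 35.5 ± 8.10% of Matrigel cells. The share in macrophage-like cells was 2.34% on day 0 and 0 of 28 cells on day 3.

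Among chromatin and histone genes, Slbp fell in both matrices. It had 193, 269, 241 and 283 CPM in day 3 collagen, against 326, 379.8, 342 and 351 CPM in day 0 collagen (-0.51 ± 0.16, adjusted p = 0.0342). In Matrigel it had 208, 311, 229.7 and 335 CPM on day 3, against 362, 449, 409.6 and 478 CPM on day 0 (-0.65 ± 0.16, adjusted p = 0.00420). All day 3 mice lay below all day 0 mice in both, and leaving out a mouse kept the collagen call in 1 of 4 fits and the Matrigel call in 3 of 4. Chaf1b, a subunit of the histone loader behind the fork, was higher in each of the 4 mice of both matrices without passing (0.32 ± 0.12 in collagen, adjusted p = 0.0746, and 0.30 ± 0.12 in Matrigel, adjusted p = 0.0590). Uhrf1, which carries DNA methylation to new strands, was at -0.15 ± 0.16 in collagen and -0.38 ± 0.16 in Matrigel (adjusted p = 0.0735), and Hells, a chromatin remodeller, at -0.04 ± 0.18 and 0.27 ± 0.18.

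In the fit without the mouse as a block, fork protection and repair genes passed in Matrigel and not in collagen. That difference itself did not pass for any of them. Of the 8 genes 4 fell in Matrigel. Ung had 63.7, 70.7, 46.0 and 83.1 CPM on day 3, against 114, 113, 85.8 and 119 CPM on day 0, with no overlap (-0.71 ± 0.21, adjusted p = 0.0108). In collagen Ung had 50.6, 59.3, 43.2 and 73.0 CPM on day 3, against 79.0, 74.0, 68.0 and 84.2 CPM on day 0 (-0.44 ± 0.21, adjusted p = 0.143). It was lower in each mouse of both matrices. Exo1, a nuclease of mismatch repair and resection, had 23.9, 44.0, 37.8 and 37.1 CPM on day 3, against 54.3, 67.8, 82.3 and 40.4 CPM on day 0 in Matrigel (-0.76 ± 0.23, adjusted p = 0.0144). Usp1, which removes ubiquitin from PCNA, had 137, 129.6, 166 and 187 CPM on day 3, against 191, 209, 219 and 183 CPM on day 0 in Matrigel (-0.37 ± 0.14, adjusted p = 0.0404). Brca1 had 21.6, 26.8, 29.9 and 23.0 CPM on day 3, against 38.8, 37.3, 39.1 and 26.9 CPM on day 0 in Matrigel (-0.48 ± 0.19, adjusted p = 0.0474). All 3 overlapped between the days. Leaving out a mouse kept the calls of Exo1, Usp1 and Brca1 in 1 of 4 fits each and that of Ung in 3 of 4. In collagen the same 3 were at -0.38 ± 0.23 for Exo1, -0.28 ± 0.14 for Usp1 and -0.10 ± 0.18 for Brca1. The other 4 did not pass. Clspn and Tipin, of the fork protection machinery, were at 0.28 ± 0.17 and -0.07 ± 0.18 in collagen and at 0.31 ± 0.17 and 0.20 ± 0.18 in Matrigel. Brip1 and Rad51ap1, of homologous recombination, were at 0.04 ± 0.17 and -0.36 ± 0.30 in collagen and at 0.20 ± 0.17 and -0.65 ± 0.30 in Matrigel. With the mouse as a block Ung (-0.46, adjusted p = 0.00281) and Rad51ap1 (-0.35, adjusted p = 0.0257) passed in collagen, when 37.7% of all genes did. Rad51ap1 also passed with the block in Matrigel (-0.6, adjusted p = 0.00037), when 54.8% of all genes did.

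The 2 cyclin E genes went opposite ways. Ccne2 had 9.07, 15.03, 14.7 and 21.6 CPM in day 3 collagen, against 32.1, 29.9, 45.5 and 31.4 CPM in day 0 collagen, the largest change of the list (-1.23 ± 0.23, adjusted p = 0.00084). In Matrigel Ccne2 had 18.7, 20.5, 15.7 and 26.8 CPM on day 3, against 38.2, 49.0, 46.9 and 42.8 CPM on day 0 (-1.09 ± 0.23, adjusted p = 0.000848). Ccne1 had 27.9, 24.1, 36.2 and 27.5 CPM in day 3 collagen, against 21.2, 15.6, 21.0 and 18.6 CPM in day 0 collagen (0.60 ± 0.17, adjusted p = 0.0193). In Matrigel Ccne1 had 41.5, 31.9, 43.0 and 43.7 CPM on day 3, against 25.0, 19.5, 20.6 and 21.9 CPM on day 0 (0.88 ± 0.17, adjusted p = 0.000493). The days of neither gene overlapped in either matrix, and all 4 mice moved the same way. Leaving out a mouse kept the Ccne1 call in collagen in 1 of 4 fits and the other 3 calls of the pair in 4 of 4. E2f1, the activator that heads the family, and E2f8, a repressor of the same targets, did not pass. E2f1 was at -0.01 ± 0.24 in collagen and -0.39 ± 0.24 in Matrigel, and E2f8 at -0.03 ± 0.22 and 0.04 ± 0.22. In 4T1 cells Ccne2 had 2.13 CPM on day 3 and 9.77 CPM on day 0, a log2 change of -1.05, and Ccne1 had 2.79 CPM on day 3 and 2.97 CPM on day 0. A Ccne2 UMI was found in 6.36 ± 2.91, 2.49 ± 1.4 and 5.40 ± 0.87% of thinned collagen cells on days 0, 3 and 5, beside 0.58% of macrophage-like cells on day 0.

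**Figure D4:**
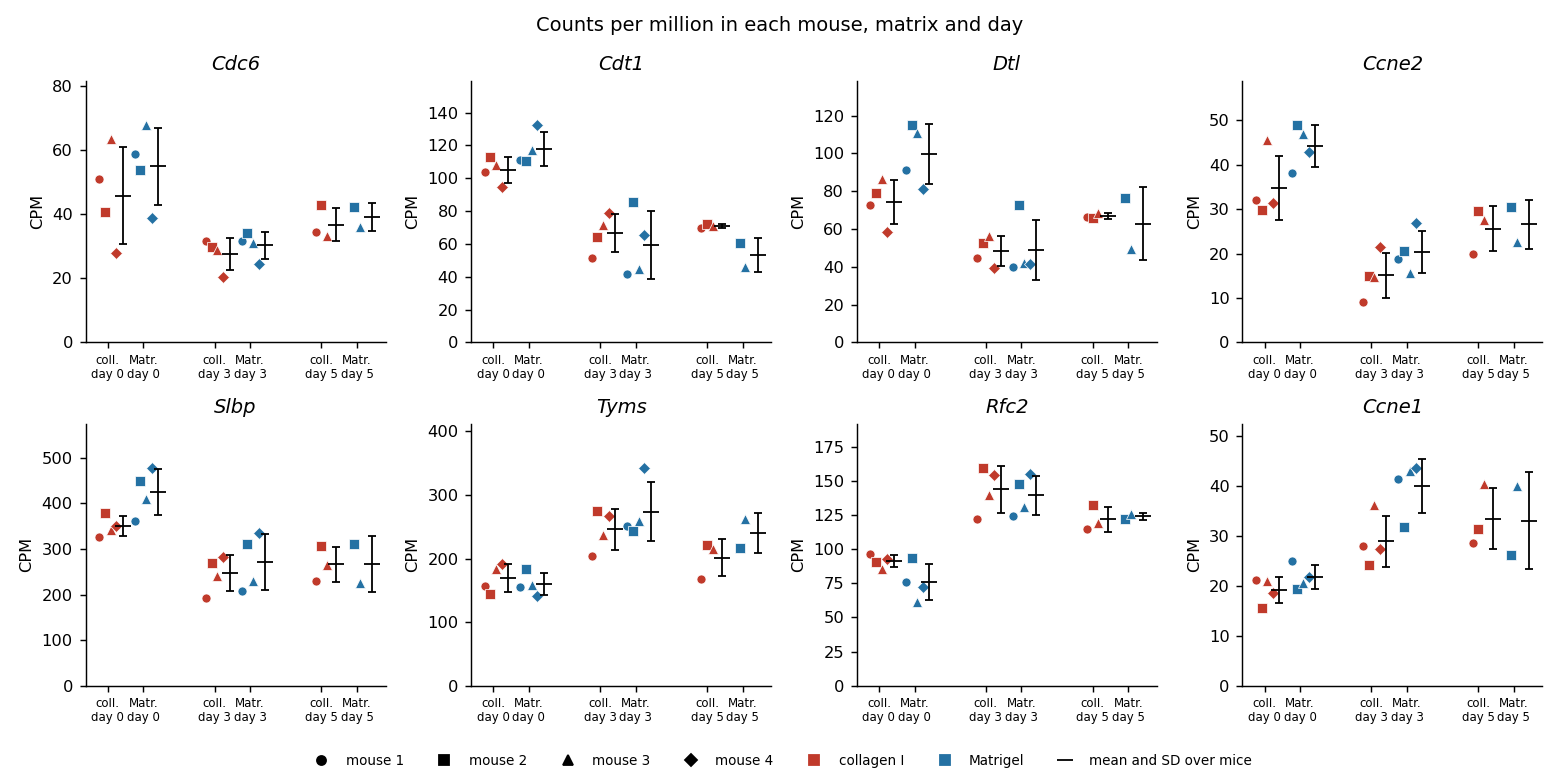
CPM (from 0) of 8 genes in each mouse, with the mean and SD over mice, by matrix and day. On average Cdc6, Cdt1, Dtl, Ccne2 and Slbp are highest on day 0, and Tyms, Rfc2 and Ccne1 are lowest on day 0, in both matrices.

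All 38 genes were lower in 4T1 cells on day 3 than on day 0, whichever way they moved in the tumour cells. The log2 change of day 3 over day 0 in 4T1 was -1.49 for Cdc6, -0.77 for Cdt1, -0.53 for Dtl, -1.63 for Slbp and -0.90 for Rpa2. It was -0.90 for Tyms, -0.91 for Rfc2, -1.57 for Gins2, -1.98 for Lig1, -0.31 for Pola1 and -0.03 for Ccne1. Since all 38 were lower in the line, any fall in tumour cells shares its sign and any rise opposes it. The signs therefore do not separate the genes that fell from those that rose.

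How far the calls rest on single animals differed between genes. Of the 29 calls between day 3 and day 0, 12 were kept whichever mouse was left out: Ccne2 and Rfc2 in both matrices and Ccne1, Cdc6, Cdt1, Dtl, Lig1, Mcm4, Rpa2 and Tyms in Matrigel. In collagen the genes that fell numbered 1 without mouse 1, 1 without mouse 2 and 1 without mouse 3, and 7 without mouse 4. Those that rose numbered 2, 1, 1 and 4. In Matrigel the genes that fell numbered 7, 9, 7 and 14, and those that rose 5, 4, 5 and 5. These fits hold fewer sums, and the share of all genes called in them is not given. A loss of calls particular to these genes therefore cannot be told from a general one. With the mouse as a block, 6 genes rose and 10 fell in collagen (37.7% of all genes passed), and 7 rose and 19 fell in Matrigel (54.8%). All 29 calls passed there too. The block added Mcm2, Mcm4, Rad51ap1 and Ung to the genes that fell in collagen, and Pcna and Chaf1b to those that rose. In Matrigel it added Mcm3, Mcm6, Mcm7, Uhrf1 and Rad51ap1 to the genes that fell, and Chaf1b and Hells to those that rose.

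Between day 5 and day 3 none of the 38 genes passed, in collagen (1.15% of all genes called) or in Matrigel (2.5%), by edgeR. DESeq2 called 1 gene higher in collagen and 0 in Matrigel. At an unadjusted p under 0.05 there were 5 genes in collagen and 1 in Matrigel. The largest value in collagen was that of Ccne2, with 19.8, 29.6 and 27.4 CPM on day 5 (mice 1 to 3), against 9.07, 15.03, 14.7 and 21.6 CPM on day 3 (mice 1 to 4). It was higher in each of the 3 mice, with overlap through mouse 4 of day 3 (0.80 ± 0.24, adjusted p = 0.118), and passed with the mouse as a block (0.90, adjusted p = 0.00658), as did Pold3 (-0.35, adjusted p = 0.0288), beside 10.5% of all genes. Dtl had 66.4, 65.8 and 68.5 CPM on day 5, against 44.6, 52.8, 56.4 and 39.3 CPM on day 3 in collagen, without overlap (0.46 ± 0.21, adjusted p = 0.361). Clspn had 45.9, 52.5 and 59.5 CPM on day 5, against 60.1, 69.4, 77.6 and 69.4 CPM on day 3 in collagen, and was lower in each of the 3 mice (-0.39 ± 0.19, adjusted p = 0.410). In Matrigel, Rrm1 had 110.8 and 152.8 CPM on day 5 (mice 2 and 3), against 88.8, 82.0, 99.2 and 100.3 CPM on day 3, without overlap (0.50 ± 0.16, adjusted p = 0.110). It passed with the mouse as a block (0.49, adjusted p = 0.0296, 12.7% of all genes). Of the other roles in collagen, Rrm1 was at 0.29 ± 0.14 (adjusted p = 0.430), Uhrf1 at 0.36 ± 0.17 (adjusted p = 0.417), Pold3 at -0.32 ± 0.14 (adjusted p = 0.330) and Mcm2 at 0.22 ± 0.15 (adjusted p = 0.616). In Matrigel, Mcm5 was at -0.34 ± 0.17 (adjusted p = 0.322), Dtl at 0.35 ± 0.24 (adjusted p = 0.482), Lig1 at 0.26 ± 0.13 (adjusted p = 0.314), Uhrf1 at 0.32 ± 0.20 (adjusted p = 0.445), Brip1 at -0.37 ± 0.22 (adjusted p = 0.410) and Ccne1 at -0.29 ± 0.22 (adjusted p = 0.537). Groups without overlap numbered 6 of 38 in collagen (17.4% of all genes) and 5 of 38 in Matrigel (22.5%).

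The genes that control Rb and E2F were read in the same fit. Of 24 such genes 1 rose and 6 fell in collagen (9.3% of all genes rose and 10.2% fell), and 4 rose and 10 fell in Matrigel (19.4% and 19.7%), with a median log2 change of -0.38 in collagen and -0.36 in Matrigel, on day 3 relative to day 0. Myc, a transcription factor that drives entry into the cycle, had 48.6, 41.3, 55.2 and 44.6 CPM in day 3 collagen, against 129.8, 112, 108 and 91.1 CPM in day 0 collagen (-1.22 ± 0.17, adjusted p = 5.91e-05). In Matrigel Myc had 37.96, 62.3, 51.3 and 37.2 CPM on day 3, against 189, 202, 200.1 and 151 CPM on day 0 (-1.97 ± 0.17, adjusted p = 1.07e-07). All 4 mice were lower on day 3 with no overlap in either matrix. E2f3, an activator like E2f1, fell by 0.62 ± 0.13 in collagen (adjusted p = 0.00275) and by 0.90 ± 0.13 in Matrigel (adjusted p = 3.54e-05). Lin54, a subunit of the MuvB complex that represses or activates cell cycle genes, fell by 1.16 ± 0.21 in Matrigel (adjusted p = 0.000274). Ccnd3, cyclin D3, rose by 0.62 ± 0.14 in collagen (adjusted p = 0.00443) and by 0.98 ± 0.14 in Matrigel (adjusted p = 3.25e-05). Cdk2, the kinase that cyclin E activates, fell in collagen, with 17.97, 17.5, 19.1 and 21.9 CPM on day 3, against 31.6, 28.0, 39.2 and 33.8 CPM on day 0 (-0.80 ± 0.15, adjusted p = 0.00113). On day 5 it was higher in collagen than on day 3, at 30.2, 29.4 and 31.0 CPM (0.67 ± 0.16, adjusted p = 0.0493). In Matrigel Cdk2 also fell on day 3 (-0.46 ± 0.15, adjusted p = 0.0240) and was at 0.60 ± 0.19 on day 5 over day 3 (adjusted p = 0.107). In 4T1 cells of the same pools Cdk2 changed by -1.05 and then by 1.48. For day 3 over day 0, 4T1 had 0.16 for Myc, -0.17 for E2f3, and -0.52 for both Lin54 and Ccnd3. Between the matrices on day 0, Myc (-0.74 ± 0.16, adjusted p = 0.0114) and E2f3 (-0.67 ± 0.13, adjusted p = 0.00594) were lower in collagen.

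Of 8 CDK inhibitor genes, 2 rose in collagen (9.3% of all genes did) and 5 in Matrigel (19.4%) on day 3 relative to day 0, and none fell (10.2% and 19.7% of all genes did). Cdkn2a, whose products inhibit Cdk4 and Cdk6 and stabilise p53 and share their 3' end, had 1258, 1273, 1402 and 1301 CPM in day 3 collagen, against 307, 316, 392.2 and 281 CPM in day 0 collagen (2.01 ± 0.17, adjusted p = 1.88e-07). In Matrigel Cdkn2a had 864, 1102, 1590.0 and 1177 CPM on day 3, against 325, 264, 421 and 338 CPM on day 0 (1.81 ± 0.17, adjusted p = 2.46e-07). Cdkn2b, its neighbour and a like inhibitor, rose by 1.72 ± 0.32 in collagen (adjusted p = 0.000963) and by 1.27 ± 0.32 in Matrigel (adjusted p = 0.00403). Both genes were free of overlap between the days in collagen and in Matrigel. Cdkn3, a phosphatase of Cdk2 that is usually high in mitosis, and Cdkn2d, a further inhibitor of Cdk4 and Cdk6, rose in Matrigel by 1.63 ± 0.28 and 1.39 ± 0.44 (adjusted p = 0.000149 and 0.0180). In 4T1 cells of the same pools Cdkn2a was also higher on day 3, at 14.4 CPM against 1.61 CPM on day 0. That is a log2 change of 1.55 (1 sum per pool), and its part in the tumour cells' rise was not tested. The line's change was 0.27 for Cdkn2b, -0.37 for Cdkn3 and -1.25 for Cdkn2d. Cdkn1a, the p53 target that inhibits cyclin E with Cdk2, was at 0.90 ± 0.34 in collagen (adjusted p = 0.0683) and 0.12 ± 0.33 in Matrigel (adjusted p = 0.811). On day 5 it fell in Matrigel, with 199.7 and 128.7 CPM on day 5, against 345, 1057, 551 and 605 CPM on day 3 (-1.96 ± 0.46, adjusted p = 0.0283). In collagen the same comparison gave -1.20 ± 0.37 (adjusted p = 0.139).

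Of 47 other replication genes, 2 rose and 4 fell in collagen, 6 of 47 beside 19.5% of all genes, and 9 rose and 11 fell in Matrigel, 20 of 47 beside 39.1%, on day 3 relative to day 0. Among those with the smallest p in Matrigel were Tk1, the thymidine kinase (1.72 ± 0.18, adjusted p = 6.88e-07), Mcmbp, a partner of the Mcm ring (-0.74 ± 0.10, adjusted p = 1.2e-05), and Orc1, the subunit of the origin recognition complex that E2F regulates (-0.89 ± 0.14, adjusted p = 5.75e-05). Tk1 had 123, 106, 120.2 and 124 CPM in day 3 Matrigel, against 49.3, 36.3, 31.0 and 27.2 CPM on day 0. The days did not overlap. In collagen the 4 with the smallest p were Rpa3 (-0.68 ± 0.14), Mcmbp (-0.38 ± 0.10), Cdc7, the kinase that fires origins (-0.66 ± 0.17), and Orc1 (-0.47 ± 0.14), with adjusted p of 0.00164, 0.00933, 0.0108 and 0.0199. Tk1 also differed between the matrices on day 0. It had 82.1, 59.0, 65.9 and 93.8 CPM in collagen, against 49.3, 36.3, 31.0 and 27.2 CPM in Matrigel (1.06 ± 0.17, adjusted p = 0.0019). Rpa3, the smallest subunit of the complex that holds Rpa2, was higher on day 5 than on day 3, by 0.73 ± 0.14 in collagen (adjusted p = 0.0131) and by 1.11 ± 0.16 in Matrigel (adjusted p = 0.00115). In 4T1 cells of the same pools Rpa3 changed by -2.02 from day 0 to day 3 and then by 2.08 (1 sum per pool). For day 3 over day 0 the line had -2.0 for Tk1, -0.6 for Mcmbp, -0.56 for Orc1 and -1.27 for Cdc7. The part of these changes in the tumour cells' differences was not tested.

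On day 0, 2 of the 30 G2 and mitosis genes passed (7.03% of all genes did), both with higher values in collagen. They were Ccnb2, cyclin B2, with 48.7, 49.7, 48.7 and 73.5 CPM in collagen, against 12.8, 16.9, 21.3 and 26.5 CPM in Matrigel (1.51 ± 0.33, adjusted p = 0.0109), and Ckap2, a spindle protein (0.65 ± 0.18, adjusted p = 0.0377). With the mouse as a block 13 of 30 were higher in collagen, when 24.3% of all genes passed. Between day 3 and day 0, 13 of 30 rose in Matrigel (19.4% of all genes did) and 0 of 30 by edgeR in collagen (9.3%). In collagen 2 had an unadjusted p under 0.05, Ccnb2 higher (0.85 ± 0.32) and Kif11 lower (-0.60 ± 0.26). With the block 1 rose in collagen (37.7% of all genes passed). In Matrigel 20 rose with the block (54.8%). Ccnb2 rose in Matrigel by 2.39 ± 0.33 (adjusted p = 2.09e-05), Cenpa, the centromere histone, by 1.19 ± 0.24 (adjusted p = 0.000752), Plk1, a mitotic kinase, by 1.67 ± 0.35 (adjusted p = 0.0011) and Hmmr, a spindle protein, by 1.36 ± 0.33 (adjusted p = 0.00345). In 4T1 cells of the same pools their changes were -1.36, -1.17, -1.32 and -1.5 in that order (1 sum per pool). Mki67, the common proliferation marker, had 161, 95.8, 177 and 181 CPM in day 3 Matrigel, against 67.0, 85.2, 118.5 and 65.2 CPM in day 0 Matrigel (0.87 ± 0.26, adjusted p = 0.0131). It was higher in each mouse, with overlap through mouse 2 of day 3 and mouse 3 of day 0. In collagen Mki67 was at 0.16 ± 0.26 (adjusted p = 0.713). Between the matrices it was at 0.52 ± 0.26 on day 0 (adjusted p = 0.229) and at -0.18 ± 0.26 on day 3 (adjusted p = 0.933). The change of the matrix difference passed for none of the 30 genes by edgeR, with 5 at an unadjusted p under 0.05 for day 3 and 9 for day 5, and with the mouse as a block 3 were lower for day 3 (5.34% of all genes passed) and 10 for day 5 (13.7%).

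Within a sum, the 38 genes varied together from cell to cell to different degrees. Each gene was set against the sum of the other 37 across the cells of a sum, and the median Pearson correlation over the 18 sums of at least 100 cells is given as a description. Cells of a sum share a library, and depth correlated with single genes at up to 0.37 (Tyms). Mcm3 (0.62), Slbp (0.61), Mcm6 (0.60), Mcm5 (0.56) and Hells (0.56) followed the rest most closely, and Pold3 (0.27) and Gins2 (0.30) least. Against the sum of the G2 and mitosis genes, Rrm2 (0.39), Rad51ap1 (0.32), Rrm1 (0.32), Clspn (0.31) and Usp1 (0.29) had the highest values. Ung (-0.29), Gins2 (-0.26), Mcm6 (-0.15) and Mcm2 (-0.13) had the lowest. Among the helicase genes all but Mcm7 (0.02) were below 0, and all 3 nucleotide supply genes were above 0.2. The lowest and highest sums were 0.27 and 0.48 for Rrm2, -0.51 and -0.05 for Ung and -0.49 and -0.02 for Gins2, so each of the 3 kept its sign in all 18 sums. Of the genes that fell in both matrices, Slbp was at 0.20, Ccne2 at 0.13, Cdc6 and Rpa2 at 0.08, Dtl at 0.00 and Cdt1 at -0.02. Of those that rose, Tyms was at 0.23, Ccne1 at 0.08 and Rfc2 at 0.04.

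**Figure D5:**
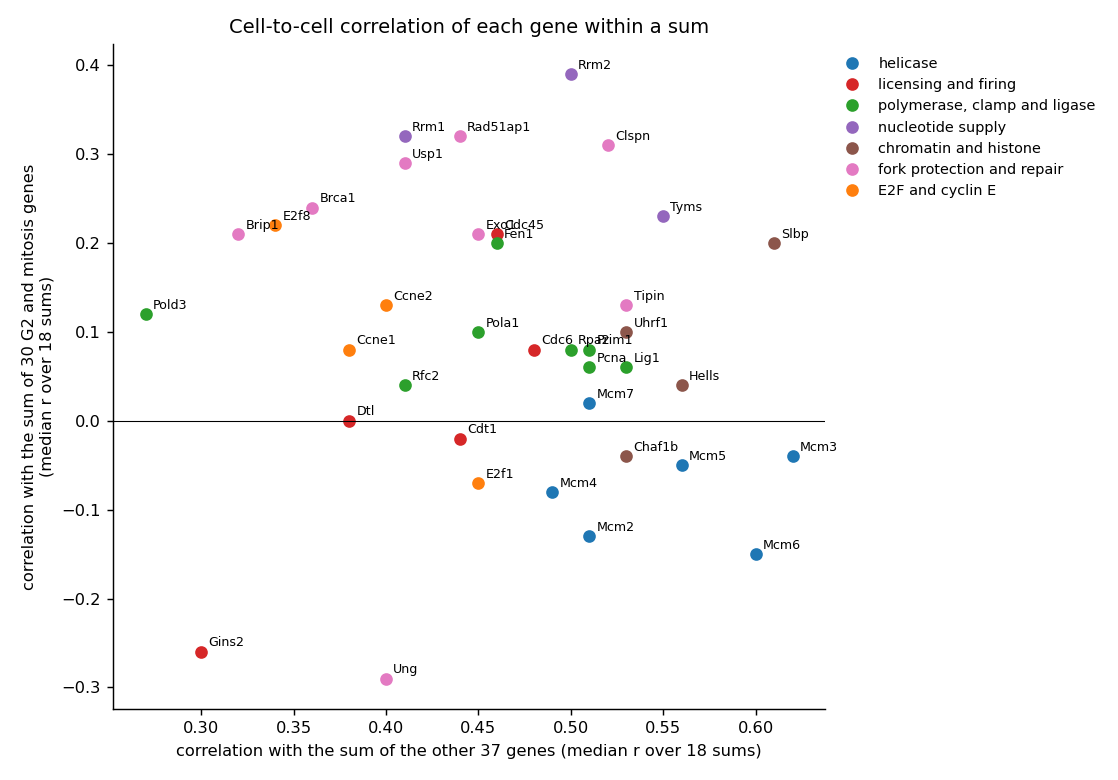
Median Pearson r over 18 sums, across the cells of each sum, of each gene with the sum of the other 37 genes (horizontal) and with the sum of 30 G2 and mitosis genes (vertical), coloured by role. Rrm2 (0.39) lies highest and Ung (-0.29) and Gins2 (-0.26) lowest on the vertical axis, while Mcm3 (0.62) lies farthest right.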

How the data were processed

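Single-cell RNA was read with the 10x Genomics 3' v2 kit and MULTI-seq barcodes. The values are UMI counts per gene and cell as deposited by the authors, with the mitochondrial share of each cell deposited as a fraction (below 10% in every cell, at most 9.99%). Cell Ranger 3.0.2, Scanpy 1.4.4 and the build GRCm38 are named, with no role, per the submitters' processing notes, and no gene annotation release is stated there. Day, matrix and mouse of each cell come from the deposited annotation.

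Cells were clustered with Scanpy 1.11.5 (2000 variable genes, 30 components, 15 neighbours, resolution 1.0, 24 clusters), and clusters with markers of macrophages, fibroblasts or T and NK cells were dropped. Doublets were not called. A further 56 mouse-labelled cells in the 4T1 cluster were kept, with an alternative without them. UMIs of each mouse, matrix and day were added up where at least 20 cells remained. edgeR 4.0.16 (R 4.3.3) fitted 6 groups with the quasi-likelihood test in 9 comparisons, with Benjamini-Hochberg adjustment over 13184 genes, and all 38 genes passed the filter on low counts. CPM use TMM library sizes, except in 4T1 and macrophage-like sums, and fold changes are log2 with SE. The test was checked on simulated counts, drawn independently for each sum and without a mouse effect. That check therefore does not cover the correlation between sums of the same mouse.

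Alternatives were the mouse as a block, DESeq2 1.42.0, other size factors, no filter, other cell sets and leaving out each mouse. Mice carry the same number in both matrices and on all days and are the same animals; deviations of sums of the same mouse from their group means correlated at a median of 0.398 (0.061 to 0.777), against -0.125 between mice, and the closest sum was of the same mouse for 21 of 21. No replicate pair agreed within sampling noise. For counts by DESeq2, at an unadjusted p or without a mouse, the share over all genes is not given. Such counts are therefore not set against a background. All 38 genes were followed. Values of each sum are given for called genes (up to 4 per role, smallest p first) or, where none was called, for the gene of each role with the smallest p, with fold changes alone for some of these, and of each other list for up to 4 called genes plus Mki67 and Cdkn1a. One gene that this rule names is not reported here. The 38 genes, the roles and the other lists were chosen with earlier results of these data known.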

Additional observations from a re-analysis of the deposited data

Results flagged for a closer look

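In 13 of the 160 groups of 4 mice tested, 1 mouse stood apart, its gap to the nearest other divided by the group's range being above Dixon's critical value of 0.829. Chance gives this in about 1 in 20 groups.

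Mouse 3 was the high one in 6 of them. Mcm2 had 163 CPM in mouse 3 in day 0 collagen (others 121 to 122) and 118 CPM in day 3 collagen (others 94.9 to 96.3). In day 0 collagen mouse 3 also had 377 CPM of Rrm2 (others 155 to 192), 85.5 CPM of Rad51ap1 (others 41.0 to 47.6) and 45.5 CPM of Ccne2 (others 29.9 to 32.1). In day 0 Matrigel it had 120.0 CPM of Rad51ap1 (others 57.3 to 63.5).

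Mouse 2 was the high one in day 3 Matrigel for Fen1 at 97.1 CPM (others 71.8 to 73.8), Dtl at 72.9 CPM (others 39.7 to 42.1) and Hells at 266 CPM (others 158 to 173), and in day 0 Matrigel for Mcm7 at 273 CPM (others 210.0 to 216). Mouse 4 was high for Tyms in day 3 Matrigel at 343 CPM (others 244 to 259) and for Tipin in day 3 collagen at 179 CPM (others 126 to 135), and low for Brca1 in day 0 Matrigel at 26.9 CPM (others 37.3 to 39.1).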

How the results depend on the processing

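Of the 29 calls between day 3 and day 0, 12 passed in every alternative and without each mouse, and none reversed; over all 319 recomputed values of these calls 60 missed the threshold. With the mouse as a replicate block, collagen over Matrigel gave 2 higher and 5 lower genes on day 0 and 1 lower on day 3, the change of that difference on day 5 gave 1 higher and 1 lower, day 3 over day 0 in collagen gave 10 lower, and day 5 over day 3 gave 1 higher and 1 lower in collagen and 1 higher in Matrigel. DESeq2 gave 1 higher and 1 lower for collagen over Matrigel on day 0, 1 lower for the change on day 5 and 1 higher for day 5 over day 3 in collagen. With no filter on low counts 3 genes fell in collagen on day 3 relative to day 0. Leaving out each mouse in turn gave 1 to 4 higher and 1 to 7 lower genes for day 3 over day 0 in collagen, 7 to 14 lower in Matrigel, and 0 to 1 higher for day 5 over day 3 in collagen. Fewer sums enter each of these fits; the cause of the other shifts was not tested.

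Shares of thinned cells depend on the threshold. On days 0, 3 and 5, at least 5 UMIs gave 74.69, 67.19 and 67.5% for collagen and 77.66, 67.72 and 69.45% for Matrigel. At least 15 gave 13.2, 9.04 and 11.48% for collagen and 14.87, 9.48 and 7.98% for Matrigel. Thinned to 5000 UMIs, with the threshold scaled to 25 UMIs, day 5 Matrigel had 32.88%. The share of UMIs in day 0 Matrigel was 0.435% over all mouse-labelled cells and 0.44% as a mean over cells. Day 5 Matrigel rests on 2 mice, which limits every comparison with it.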
